A study of Mus musculus with 6 samples.

Results

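The outer segment and cilium genes are 48 of the 13072 genes listed for mouse retina, chosen for what their proteins do. Of these, 26 were picked by name, and 22 carry a name that begins with Ift or Bbs and a number. The kinesin gene Kif17, which the choice also named, was not analysed here. The 6 libraries hold polyadenylated RNA of whole retinas at postnatal day 7 from mice on a C57BL/6 background. There were 3 libraries of CTGF-/- retinas, made deficient in that growth factor, the product of Ctgf, by inducible Cre/lox deletion, and 3 libraries of WT retinas. No source used here names the Cre driver, the inducing agent or the deleted part of the gene, or says that each library came from its own animal. A p-value therefore sets the difference between the groups against the scatter of these libraries, which may be technical.

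A photoreceptor carries its light-sensing membranes in the outer segment, a stack of discs built on a modified primary cilium. Proteins and membrane are made in the inner segment and reach the discs through a narrow connecting cilium. Intraflagellar transport particles are moved along the ciliary microtubules by kinesin-2 outward and by dynein-2 back, and the BBSome, a coat complex with subunits named after Bardet-Biedl syndrome, carries membrane proteins with them. In the mouse retina the discs are laid down during the weeks after birth, so these genes are read here while outer segments are still forming. Many of the human counterparts of these genes are mutated in inherited retinal degeneration.

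Ctgf (ENSMUSG00000019997.11), the targeted gene, was weak in every library. It was at 0.587, 1.0 and 0.526 FPKM in CTGF-/- replicates 1 to 3, against 0.932, 0.777 and 1.51 FPKM in WT replicates 1 to 3, where FPKM is a fragment count scaled to transcript length and library total. The ranges overlapped, the log2 difference was −0.28 (SE 0.17, limma adjusted p = 0.571), and reads from undeleted exons would still count, so the gene does not check the labels. Gene FPKM summed to between 217674 and 230474 in CTGF-/- libraries, against 208436 to 216436 in WT libraries, and read depth is unknown. The retina's own marker lists were detected in every library. The 12 lens markers summed to 283 to 4733 FPKM in CTGF-/- libraries, highest in replicate 3, and to 659, 6.47 and 10.6 FPKM in WT replicates 1 to 3.

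No outer segment or cilium gene passed the test at an adjusted p under 0.05, a call made for 6 of 12915 genes tested (0.0465%). All 48 genes were above the filter of a mean of 0.5 FPKM, and none was listed at 0 in any library. At an unadjusted limma p under 0.05, 10 of the 48 genes were higher in CTGF-/- retinas (20.8%) and 0 were lower, against 9.32% of all genes tested, of which 3.83% were higher and 5.49% lower. The count of 10 depended on single libraries and on scaling: leaving out WT replicate 1 gave 5 and leaving out WT replicate 2 gave 6, and rescaling the libraries to equal FPKM totals gave 5. Without the highest lens library of each group it was 4, with fewer libraries left in each group for the test. The median log2 difference of the outer segment structure genes was 0.28 both with and without those lens libraries. The part of lens RNA in the result was not tested. The same counts over all genes were not made under these settings, so whether the falls are particular to these genes is not known. The median log2 difference over the 48 genes, CTGF-/- minus WT on the log2(FPKM + 1) scale, was 0.07, against −0.02 over all genes tested. Of the 48 genes, 31 had a difference above 0 (64.6%), against 44.9% of all genes tested. The groups did not overlap for 12 genes that were higher in CTGF-/- retinas and 1 that was lower, where the groups of 18.5% of all genes tested did not overlap, 7.53% higher and 10.9% lower. The genes were chosen with results of these libraries known, so these shares are given as a description. In a whole retina, more cells of a type and more RNA per cell cannot be told apart, and the same holds for fewer cells and less RNA.

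**Figure D1:**
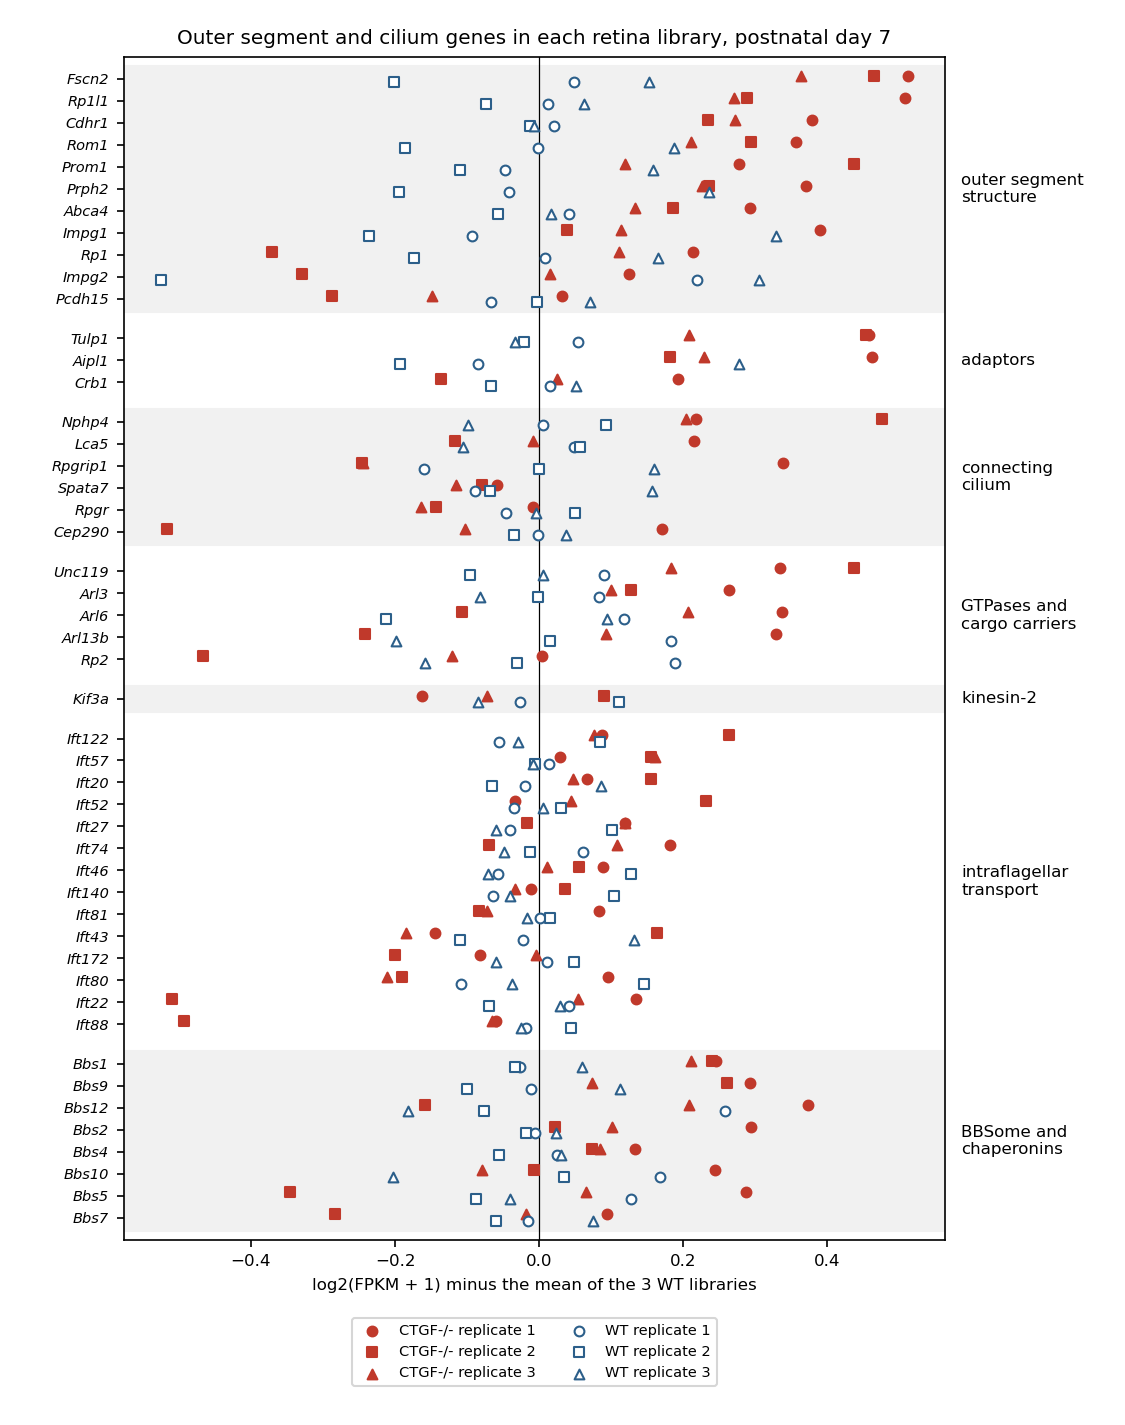
Level of each of the 48 genes in each library, as log2(FPKM + 1) relative to the average WT library, with CTGF-/- libraries as filled red symbols above WT libraries as open blue symbols in each row. The upper structure genes have all red symbols to the right of 0, while the intraflagellar transport genes scatter on both sides, and CTGF-/- replicate 1 is the rightmost symbol in 29 rows.

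The 2 tetraspanins of the disc rim, Rom1 and Prph2, were the most abundant genes of the set. Rom1 (ENSMUSG00000071648.3, GRCm38 chromosome 19, 8927382 to 8929356, minus strand) was at 461, 442 and 417 FPKM in CTGF-/- replicates 1 to 3, against 360, 316 and 410 FPKM in WT replicates 1 to 3. All CTGF-/- values lay above all WT values, although WT replicate 3 came within a few FPKM of CTGF-/- replicate 3. The means were 440 ± 22.4 FPKM in CTGF-/- and 362 ± 47.1 FPKM in WT retinas (SD, n = 3 each), a 1.21-fold ratio. The log2 difference of 0.29 (SE 0.12) had a limma adjusted p of 0.533. Prph2 (ENSMUSG00000023978.5, chromosome 17, 46910459 to 46924933, plus strand) was at 335, 305 and 303 FPKM in CTGF-/- libraries, against 252, 226 and 305 FPKM in WT libraries. Here WT replicate 3 lay among the CTGF-/- libraries, and the difference of 0.28 (SE 0.12) had a limma adjusted p of 0.537. The proteins of this pair form complexes with each other, and the ratio of their FPKM was nearly fixed across the libraries. Prph2 over Rom1 was 0.726, 0.691 and 0.728 in CTGF-/- replicates 1 to 3, against 0.699, 0.716 and 0.744 in WT replicates 1 to 3. The mean ratios of 0.715 ± 0.0207 in CTGF-/- and 0.720 ± 0.0228 in WT retinas (SD, n = 3 each) differed by less than the spread between replicates.

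The 250 bases before the RefSeq start of each tetraspanin gene are shown because the ratio of the pair was steady while the letters differ. Capitals mark TAATC on either strand, the core letters recognised by the photoreceptor factors CRX and OTX2. The windows, from RefSeq on GRCm38.p6, are chr17:46910228-46910477 on the plus strand for Prph2 and chr19:8929357-8929606 on the minus strand for Rom1.
Prph2: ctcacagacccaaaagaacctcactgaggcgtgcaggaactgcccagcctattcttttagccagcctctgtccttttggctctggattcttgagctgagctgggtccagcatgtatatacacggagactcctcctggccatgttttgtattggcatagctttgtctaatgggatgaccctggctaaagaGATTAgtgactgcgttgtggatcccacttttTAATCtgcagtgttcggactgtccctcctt
Rom1: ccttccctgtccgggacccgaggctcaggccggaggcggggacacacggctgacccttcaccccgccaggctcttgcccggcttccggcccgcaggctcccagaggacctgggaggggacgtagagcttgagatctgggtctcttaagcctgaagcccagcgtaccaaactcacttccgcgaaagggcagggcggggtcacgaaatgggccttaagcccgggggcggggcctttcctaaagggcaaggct
The Prph2 stretch holds the core letters at positions −61 and −30 relative to the start, and the Rom1 stretch does not hold them, which says only that these letters are not in this window. Over windows from 250 bases before to 50 after a start, TAATC on either strand was present for 5 of 9 outer segment structure genes with a window (55.6%), namely Abca4, Impg1, Impg2, Prom1 and Prph2. It was also present for all 3 photoreceptor adaptor genes, against 24.6% of 27025 genes with a window. A gene with several windows counted once if any window held the letters.

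The other genes of the outer segment structure numbered 9, and with the tetraspanins 8 of 11 had a difference above 0. The median log2 difference of the 11 genes was 0.28, and it stayed above 0 under each scaling tried, with 0.20 at equal FPKM totals. Without WT replicate 2 it was 0.18. At an unadjusted p under 0.05, 6 of the 11 genes were higher in CTGF-/- retinas and 0 were lower (54.5%), against 3.83% higher of all genes tested. The groups did not overlap for 5 genes that were higher (45.5%), against 7.53% of all genes tested. Fscn2, retinal fascin, which bundles actin filaments, had the largest difference. Fscn2 (ENSMUSG00000025380.2) was at 5.31, 5.11 and 4.70 FPKM in CTGF-/- libraries, against 3.58, 2.85 and 3.92 FPKM in WT libraries. The groups were separate, with a 1.46-fold ratio of means, a log2 difference of 0.45 (SE 0.12) and a limma adjusted p of 0.533.

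Rp1 and Rp1l1, related microtubule-associated proteins of the outer segment axoneme, did not give the same picture. Rp1l1 (ENSMUSG00000046049.7) was at 48.9, 41.9 and 41.3 FPKM in CTGF-/- libraries, against 34.4, 32.3 and 35.7 FPKM in WT libraries. Every CTGF-/- value was above every WT value, and the log2 difference was 0.36 (SE 0.09, limma adjusted p = 0.533). Rp1 was at 107, 70.9 and 99.4 FPKM in CTGF-/- libraries, against 92.4, 81.4 and 103 FPKM in WT libraries. CTGF-/- replicate 2 was the lowest of the 6 libraries, and the difference of −0.02 (SE 0.17) was small beside its error. The ratio of Rp1l1 to Rp1 was 0.458, 0.591 and 0.416 in CTGF-/- replicates 1 to 3, against 0.372, 0.397 and 0.345 in WT replicates 1 to 3. The ranges of this ratio were separate, a description of a pair noticed after its values were seen. The main transcripts of the pair are of like length, at 6684 bases for Rp1l1 and 6869 bases for Rp1.

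Cdhr1 and Prom1 encode a cadherin and a membrane protein that meet at the base of the outer segment where new discs form. Cdhr1 (ENSMUSG00000021803.10) was at 238, 215 and 221 FPKM in CTGF-/- libraries, against 185, 181 and 182 FPKM in WT libraries. The WT libraries lay within a few FPKM of each other and well below all 3 CTGF-/- libraries, with means of 224 ± 11.8 FPKM in CTGF-/- and 182 ± 2.26 FPKM in WT retinas (SD, n = 3 each). The log2 difference was 0.30 (SE 0.08), with a limma adjusted p of 0.533. Prom1 (ENSMUSG00000029086.15) was at 63.8, 71.4 and 57.01 FPKM in CTGF-/- libraries, against 50.7, 48.5 and 58.6 FPKM in WT libraries. CTGF-/- replicate 3 lay inside the WT range, and the difference of 0.28 (SE 0.11) had a limma adjusted p of 0.533. Abca4, the retinoid transporter of disc rims, was at 16.6, 15.4 and 14.8 FPKM in CTGF-/- libraries, against 13.8, 12.8 and 13.6 FPKM in WT libraries. These groups were separate, with a difference of 0.20 (SE 0.08, limma adjusted p = 0.533).

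The remaining structure genes did not separate the groups. Impg1 and Impg2 encode proteoglycans of the matrix around the outer segments, and their differences were 0.18 (SE 0.16) and −0.06 (SE 0.23). Impg2 had the largest standard error of the structure genes on the log2 scale. It was at 90.9, 66.03 and 84.2 FPKM in CTGF-/- libraries, against 97.0, 57.6 and 103 FPKM in WT libraries. Replicate 2 was the lowest library in each group for this gene. Pcdh15, a protocadherin of the Usher syndrome group, was the structure gene with the largest difference against the majority. It was at 15.8, 12.5 and 13.8 FPKM in CTGF-/- libraries, against 14.7, 15.4 and 16.3 FPKM in WT libraries. The ranges overlapped, and the difference of −0.14 (SE 0.10, limma adjusted p = 0.620) turned to 0.02 when libraries were centred within classes of transcript length.

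The photoreceptor adaptor and polarity genes Tulp1, Aipl1 and Crb1 all had differences above 0, with a median of 0.29. Tulp1, a tubby-family protein needed for protein transport to the outer segment, had the smallest p of the 48 genes. Tulp1 (ENSMUSG00000037446.13) was at 108, 108 and 90.8 FPKM in CTGF-/- libraries, against 81.5, 77.3 and 76.6 FPKM in WT libraries. All CTGF-/- libraries were above all WT libraries, with means of 102 ± 9.92 FPKM in CTGF-/- and 78.5 ± 2.64 FPKM in WT retinas (SD, n = 3 each). The 1.30-fold ratio corresponded to a log2 difference of 0.37 (SE 0.09, limma adjusted p = 0.533). Aipl1, a chaperone of rod and cone phosphodiesterase, had a difference of 0.29 (SE 0.14) with overlapping groups, and the apical polarity gene Crb1 had one of 0.03 (SE 0.10).

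The 6 genes of the connecting cilium itself did not follow the structure genes. Rpgrip1, a scaffold that anchors Rpgr in the connecting cilium, was the most abundant of them. Rpgrip1 (ENSMUSG00000057132.15) was at 102, 67.4 and 67.5 FPKM in CTGF-/- libraries, against 71.6, 80.2 and 89.6 FPKM in WT libraries. CTGF-/- replicate 1 was the highest library and the other 2 CTGF-/- libraries were the lowest, and the difference of −0.05 (SE 0.17) was smaller than its error. Cep290, a large protein of the transition zone, was at 30.8, 18.8 and 25.3 FPKM in CTGF-/- libraries, against 27.2, 26.6 and 28.0 FPKM in WT libraries. The CTGF-/- libraries spanned the WT range on both sides. Nphp4, a transition zone protein, was the exception with a difference of 0.30 (SE 0.11, limma adjusted p = 0.533). It was at 7.01, 8.58 and 6.93 FPKM in CTGF-/- libraries, against 5.91, 6.34 and 5.43 FPKM in WT libraries, and the groups were separate. Rpgr, Spata7 and Lca5 had differences between −0.11 and 0.03 with overlapping groups. Over the 6 genes 2 differences were above 0 and the median was −0.07, which turned to 0.04 without CTGF-/- replicate 2 and to 0.01 when libraries were centred within length classes.

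**Figure D2:**
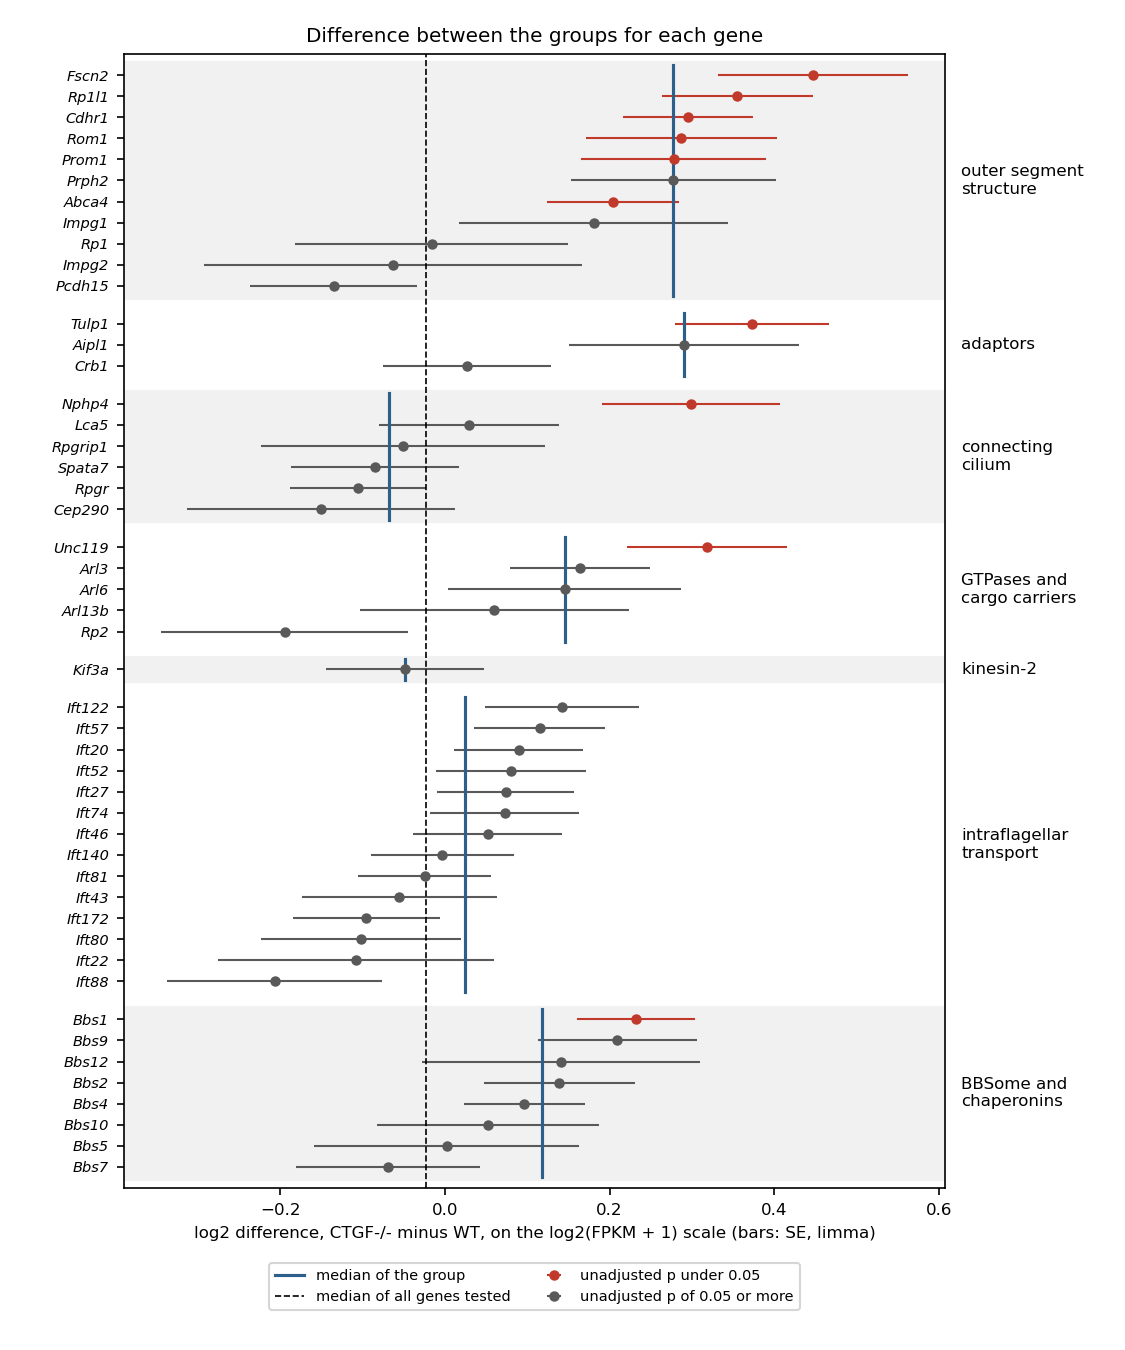
Log2 difference between CTGF-/- and WT for each gene with its standard error, by role, with the median of each role as a blue line and the median of all genes tested as a dashed line. The medians of the structure genes and adaptors lie near 0.28 and 0.29, those of the intraflagellar transport genes and the BBSome near 0.02 and 0.12, and none of the 48 genes passed an adjusted p under 0.05.

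The transport and BBSome genes numbered 28 with the motor, the small GTPases and their cargo carriers. Of them 18 had a difference above 0, 2 had an unadjusted p under 0.05 and were higher in CTGF-/- retinas (7.14%), against 3.83% of all genes tested. The groups did not overlap for 5 genes that were higher (17.9%), against 7.53% of all genes tested, and for 1 that was lower (3.57%), against 10.9%. Their median log2 difference was 0.07, and it was −0.01 when libraries were rescaled to equal FPKM totals and 0.02 without CTGF-/- replicate 1.

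Among the GTPases and cargo carriers, Unc119 was the most abundant. Its protein shields the lipid tail of transducin and other myristoylated cargo, which the GTPase Arl3 then releases in the cilium. Unc119 (ENSMUSG00000002058.13) was at 157, 169 and 141 FPKM in CTGF-/- libraries, against 132, 116 and 125 FPKM in WT libraries. The groups were separate, with a 1.25-fold ratio of means and a log2 difference of 0.32 (SE 0.10, limma adjusted p = 0.533). Arl3 was at 106, 96.3 and 94.4 FPKM in CTGF-/- libraries, against 93.3, 88.0 and 83.1 FPKM in WT libraries. The groups were separate by about 1 FPKM, and the difference of 0.16 (SE 0.09) had a limma adjusted p of 0.553. Rp2, which ends the active state of Arl3, was at 5.34, 3.58 and 4.82 FPKM in CTGF-/- libraries, against 6.21, 5.19 and 4.67 FPKM in WT libraries. It was the gene of this group against the majority, with overlapping ranges and a difference of −0.19 (SE 0.15). Arl6, which recruits the BBSome to membranes, and Arl13b, which activates Arl3, had differences of 0.15 (SE 0.14) and 0.06 (SE 0.16) with overlapping groups. Kif3a, a kinesin-2 motor subunit, was at 26.2, 31.4 and 27.9 FPKM in CTGF-/- libraries, against 28.9, 31.9 and 27.7 FPKM in WT libraries. These values were interleaved, with a difference of −0.05 (SE 0.10).

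The 14 intraflagellar transport genes split evenly, with 7 differences above 0 and 7 below, a median of 0.02 that became −0.05 at equal FPKM totals, and 0 genes at an unadjusted p under 0.05 in either direction. Their differences ran only from −0.21 to 0.14. The genes of the anterograde complex B were Ift20, Ift22, Ift27, Ift46, Ift52, Ift57, Ift74, Ift80, Ift81, Ift88 and Ift172, and those of the retrograde complex A were Ift43, Ift122 and Ift140. Ift20, which in other cells links the particle to the Golgi, was the most abundant, at 27.8, 29.6 and 27.4 FPKM in CTGF-/- libraries, against 26.1, 25.3 and 28.2 FPKM in WT libraries. WT replicate 3 lay within the CTGF-/- range, and the difference was 0.09 (SE 0.08). Ift57 and Ift88 were the genes whose groups did not overlap, in opposite directions. That is 7.14% higher and 7.14% lower, no more than the 7.53% and 10.9% of all genes tested. Ift57 was at 8.60, 9.49 and 9.53 FPKM in CTGF-/- libraries, against 8.51, 8.38 and 8.36 FPKM in WT libraries, a gap of less than 0.1 FPKM. Ift88 was at 7.83, 5.54 and 7.80 FPKM in CTGF-/- libraries, against 8.09, 8.50 and 8.05 FPKM in WT libraries. CTGF-/- replicate 2 stood far below the other 5 libraries for Ift88, and the other 2 CTGF-/- libraries were just under the WT range. The groups overlapped for the other 11 genes, with differences from −0.11 for Ift22 to 0.14 for Ift122. Ift74 and Ift81, whose proteins pair to bind tubulin, kept a ratio of Ift81 to Ift74 of 0.603 ± 0.0364 in CTGF-/- and 0.648 ± 0.0241 in WT retinas (SD, n = 3 each), with overlapping values.

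The BBSome subunits Bbs1, Bbs2, Bbs4, Bbs5, Bbs7 and Bbs9 and the chaperonin-like genes Bbs10 and Bbs12 gave 7 differences above 0 and 1 below. The median was 0.12, and 0.04 at equal FPKM totals. Bbs1 (ENSMUSG00000006464.8, chromosome 19, 4886898 to 4906627, minus strand) was the most abundant and had the smallest p. It was at 19.0, 18.9 and 18.5 FPKM in CTGF-/- libraries, against 15.5, 15.5 and 16.6 FPKM in WT libraries. Both groups were tight and separate, with means of 18.8 ± 0.255 FPKM in CTGF-/- and 15.9 ± 0.610 FPKM in WT retinas (SD, n = 3 each). The log2 difference was 0.23 (SE 0.07), with a limma adjusted p of 0.533. Bbs4 was separate by a smaller margin, at 15.1, 14.4 and 14.5 FPKM in CTGF-/- libraries, against 13.9, 13.1 and 13.97 FPKM in WT libraries. Its difference of 0.10 (SE 0.07) had a limma adjusted p of 0.624. Bbs7 was the gene against the majority, at 16.3, 12.3 and 14.98 FPKM in CTGF-/- libraries, against 15.01, 14.5 and 16.04 FPKM in WT libraries. CTGF-/- replicate 2 was the lowest library, and the difference of −0.07 (SE 0.11) became 0.04 without it. Bbs5, Bbs10 and Bbs12 spread more within each group than between the groups, with differences of 0.00 to 0.14. Bbs9 and Bbs2 had differences of 0.21 (SE 0.10) and 0.14 (SE 0.09), with overlapping groups. On the log2 scale the differences of the 8 genes ranged from −0.07 to 0.23.

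The X-box, another promoter motif, searched on both strands as GTTNCC, then any 2 bases, then GGNNAC, is bound by RFX factors and marks ciliary genes from worms to mammals. It was present in the window of 5 of 25 transport and BBSome genes with a window, of Nphp4 among 6 connecting cilium genes, and of 0 of 9 structure genes, against 1.49% of all genes with a window. The stretches around 4 of these matches are shown to compare the letters of the motif between the subunits, from RefSeq on GRCm38.p6, with the X-box in capitals. They are chr19:4906608-4906664 on the minus strand for Bbs1, chr3:36613489-36613548 on the minus strand for Bbs7, chr5:136908079-136908138 on the plus strand for Ift22 and chr16:49699169-49699228 on the plus strand for Ift57.
Bbs1: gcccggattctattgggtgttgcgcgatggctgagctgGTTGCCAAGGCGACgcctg
Bbs7: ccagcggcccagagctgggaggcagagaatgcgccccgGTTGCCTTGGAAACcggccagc
Ift22: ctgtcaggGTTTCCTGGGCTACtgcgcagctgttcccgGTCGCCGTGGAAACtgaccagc
Ift57: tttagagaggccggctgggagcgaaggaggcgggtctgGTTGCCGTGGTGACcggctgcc
The X-box of Bbs1 begins 2 bases into the transcript, and those of the other 3 genes lie before the RefSeq start, with 2 matches in Ift22. Of all 6 genes with an X-box, 4 had separate groups that were higher in CTGF-/- retinas, namely Bbs1, Bbs4, Ift57 and Nphp4, where 7.53% of all genes tested did. The closest CTGF-/- and WT values were 8.60 and 8.51 FPKM for Ift57, and 14.4 and 13.97 FPKM for Bbs4. These genes are few and were chosen with results known, so the count is a description. The other 2, Bbs7 and Ift22, had differences below 0 with overlapping groups, and a match is a description of letters, not a site. TGCTGA, letters recognised by the rod factor NRL, was present for 1 of 9 structure genes and 3 of 25 transport and BBSome genes, against 21.7% of all genes with a window. TAATC was present for 6 of 25 transport and BBSome genes, against 24.6% of all genes.

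When structure genes were set against transport and BBSome genes within each library, the distance between them overlapped between the groups. The mean log2(FPKM + 1) of the 11 structure genes exceeded that of the 28 transport and BBSome genes by 1.92, 1.88 and 1.85 in CTGF-/- replicates 1 to 3, against 1.71, 1.58 and 1.91 in WT replicates 1 to 3. WT replicates 1 and 2 lay below all CTGF-/- libraries, and WT replicate 3 lay among them. The mean distance was 1.88 in CTGF-/- and 1.74 in WT retinas, a difference of 0.15 on the log2 scale, to which no test was applied because the genes were chosen with results known.

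**Figure D3:**
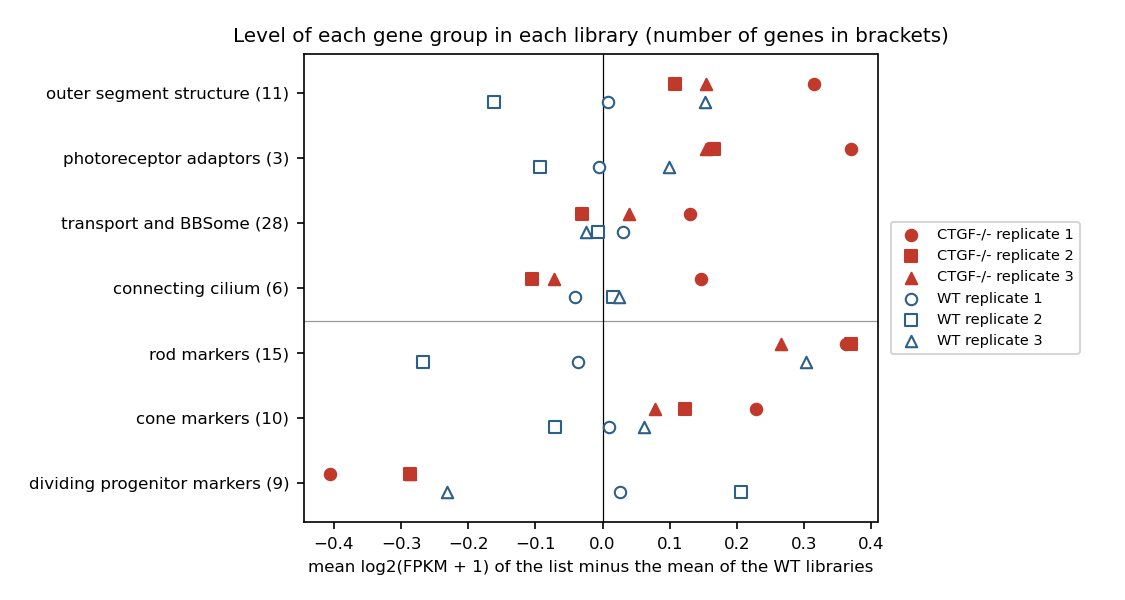
Mean log2(FPKM + 1) of each gene group in each library relative to the average WT library, with CTGF-/- libraries as filled red symbols above WT libraries as open blue symbols. The structure genes and the rod markers share their lowest library, WT replicate 2, and WT replicate 3 lies among the CTGF-/- libraries for both, while transport and BBSome genes stay within 0.13 of 0.

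Several retinal marker lists lay on one side of 0 as a whole. All 15 rod markers had differences above 0, where 44.9% of all genes tested did, with a median of 0.32. At an unadjusted p under 0.05, 6 of them were higher, against 3.83% of all genes tested. Relative to the WT mean, the rod list stood at 0.36, 0.37 and 0.27 in CTGF-/- replicates 1 to 3, against −0.04, −0.27 and 0.30 in WT replicates 1 to 3. On the same scale the structure genes stood at 0.31, 0.11 and 0.15 in CTGF-/- libraries, against 0.01, −0.16 and 0.15 in WT libraries. WT replicate 2 was lowest and WT replicate 3 highest among the WT libraries for both lists. Structure genes minus rod markers came to 0.07, −0.15 and 0.01 in CTGF-/- libraries, against 0.16, 0.22 and −0.03 in WT libraries, and these distances overlapped. The 9 markers of dividing progenitors had differences below 0 without exception, with a median of −0.36, and 4 were lower at an unadjusted p under 0.05, against 5.49% of all genes tested. They stood at −0.41, −0.29 and −0.29 in CTGF-/- libraries, against 0.03, 0.21 and −0.23 in WT libraries. Their summed level was 175 to 187 FPKM in CTGF-/- libraries, against 202 to 259 FPKM in WT libraries, and that of the rod markers 1375 to 1498 FPKM, against 988 to 1391 FPKM in WT libraries. No marker of either list was at 0, and the part of the cell type makeup in the differences of the structure genes was not tested. Of 10 cone markers 6 had differences above 0, with a median of 0.24, and 4 were higher and 0 lower at an unadjusted p under 0.05. The 4 cone markers below 0 included Cngb3, whose groups were separate and lower, at −0.29 (SE 0.13). Of 10 markers of the pigment epithelium, a neighbouring tissue, 7 were tested, and Rpe65, Best1 and Lrat were not among them. All 7 had differences above 0, with a median of 0.17, and 1 was higher at that threshold. The 5 horizontal cell markers and the 7 markers of endothelium and blood all had differences below 0, with medians of −0.29 and −0.25, and 2 and 1 of them were lower at that threshold. Their summed levels in CTGF-/- libraries, against WT libraries, were 299 to 349 against 242 to 274 FPKM for cones and 52.6 to 60.2 against 33.8 to 59.8 FPKM for pigment epithelium. They were 23.98 to 27.3 against 31.3 to 34.9 FPKM for horizontal cells and 139 to 241 against 114.5 to 504 FPKM for endothelium and blood. No marker of these 4 lists was at 0, and their part in the differences of the structure genes was not tested either. The medians of the bipolar, amacrine and ganglion cell, Müller glia, astrocyte and microglia lists ran from −0.19 to 0.11. Markers of motile cilia, from 5 detected genes, summed to only 10.6 to 11.6 FPKM in CTGF-/- libraries, against 11.2 to 12.3 FPKM in WT libraries.

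The other genes of these pathways, from lists of 88 names of which 81 were tested, are described by their counts. Pcare and BC027072, names of the same gene, were both among the 88. Of 19 other subunits of intraflagellar transport, dynein-2 and kinesin-2, 10 had a difference above 0, and at an unadjusted p under 0.05 2 were higher in CTGF-/- retinas and 0 lower, against 3.83% and 5.49% of all genes tested. Those 2 were the dynein-2 intermediate chains Wdr34 and Wdr60. Wdr34 was at 15.6, 21.4 and 15.1 FPKM in CTGF-/- libraries, against 12.6, 11.4 and 14.4 FPKM in WT libraries, and Wdr60 averaged 11.3 ± 0.905 FPKM in CTGF-/- and 9.41 ± 0.642 FPKM in WT retinas (SD, n = 3 each). The log2 differences were 0.40 (SE 0.15) and 0.24 (SE 0.09), both with separate groups and a limma adjusted p of 0.533. None of 6 other BBSome subunits and partners passed an unadjusted p under 0.05, with Rab3ip at 0.14 (SE 0.09) and Lztfl1 at −0.18 (SE 0.16). None of 23 other transition zone and connecting cilium genes did so either. In that list Ttbk2, a kinase of cilium initiation, had a difference of −0.62 (SE 0.28) that came largely from CTGF-/- replicate 2, at 3.95 FPKM against 10.6 and 8.32 FPKM in CTGF-/- replicates 1 and 3 and 10.9 to 11.8 FPKM in WT libraries. Cep164, a distal appendage protein, had a difference of 0.21 (SE 0.10).

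Of 22 other periciliary, Usher and outer segment genes, 19 had a difference above 0, against 44.9% of all genes tested, with a median of 0.14. At an unadjusted p under 0.05, 6 were higher in CTGF-/- retinas and 0 lower, against 3.83% and 5.49% of all genes tested. The smallest p belonged to BC027072, which the reference gene names list as Pcare, a photoreceptor gene of disc formation. It was at 35.8, 37.8 and 30.5 FPKM in CTGF-/- libraries, against 26.7, 25.9 and 22.3 FPKM in WT libraries. The groups were separate, with a 1.39-fold ratio of means and a log2 difference of 0.46 (SE 0.11, limma adjusted p = 0.533). Cnga1, the rod channel subunit of the outer segment plasma membrane and also one of the rod markers, was at 14.7, 19.3 and 19.9 FPKM in CTGF-/- libraries, against 10.2, 9.36 and 14.2 FPKM in WT libraries, with a difference of 0.64 (SE 0.17). Of 11 transcription factors of photoreceptor and cilium genes, 8 had a difference above 0, and at an unadjusted p under 0.05 1 was higher and 2 were lower in CTGF-/- retinas, against the same 3.83% and 5.49%. Otx2 averaged 187 ± 7.70 FPKM in CTGF-/- and 138 ± 3.91 FPKM in WT retinas (SD, n = 3 each). Its difference was 0.44 (SE 0.08, limma adjusted p = 0.533), with separate groups. Rfx3, an RFX factor of the X-box, was at 8.60, 5.88 and 7.29 FPKM in CTGF-/- libraries, against 8.95, 9.55 and 9.27 FPKM in WT libraries. All 3 CTGF-/- values were below the WT range, and the difference was −0.33 (SE 0.13, limma adjusted p = 0.533). Of the other RFX factors, Rfx1 was separate and higher at 0.10 (SE 0.08), and Rfx7 was separate and lower at −0.24 (SE 0.10). Rfx2 and Rfx5 overlapped, at 0.05 (SE 0.12) and 0.05 (SE 0.13). Crx was interleaved between the groups, with a difference of 0.06 (SE 0.10). The rod factors Nrl and Nr2e3, also on the rod list, were separate and higher, at 0.45 (SE 0.20) and 0.20 (SE 0.10).

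The 48 genes had 122 listed transcripts, of which 117 were tested, and none passed an adjusted p under 0.05, where 0.0239% of all transcripts tested did. At an unadjusted p under 0.05, 12 were higher in CTGF-/- retinas and 0 lower, against 5.05% of all transcripts tested, 2.52% higher and 2.53% lower. The count of 12 was 4 at equal FPKM totals and 7 without CTGF-/- replicate 3, and the same counts over all transcripts were not made. The groups did not overlap for 16 transcripts that were higher and 3 that were lower, against 13.4% of all transcripts tested, 5.9% higher and 7.53% lower. For 16 genes a single transcript was listed. Its FPKM equalled that of the gene in all 6 libraries for 5 of them, Arl3, Bbs1, Cdhr1, Ift27 and Rom1, and differed for the other 11. The deposited transcript value was 2.34 to 2.38 times the gene value for Bbs4, 1.51 to 1.54 times for Abca4 and 0.405 to 0.858 times for Ift88. Ift88-201 was at 5.87, 3.89 and 3.16 FPKM in CTGF-/- libraries, against 5.65, 6.78 and 6.90 FPKM in WT libraries, so the groups that were separate for the gene overlapped for its transcript. Tulp1-202, with 13 exons in GENCODE M21, was at 76.7, 79.7 and 62.2 FPKM in CTGF-/- libraries, against 55.7, 45.9 and 54.2 FPKM in WT libraries. The groups were separate, with a difference of 0.48 (SE 0.13, limma adjusted p = 0.819), and the most abundant transcript of that gene, Tulp1-201, was also separate at 0.22 (SE 0.10).

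Ift22 and Ift140 each had a transcript with separate groups, although the groups overlapped at the gene level. Arl6 was another such gene, through its most abundant transcript Arl6-203. That transcript was at 86.3, 89.6 and 97.2 FPKM in CTGF-/- libraries, against 73.2, 54.7 and 77.5 FPKM in WT libraries. Its difference was 0.42 (SE 0.15, limma adjusted p = 0.819). Among separated transcripts only Ift140-202, Tulp1-211 and Rpgr-204 had larger differences than Ift22-204. Those of Tulp1-211, at 1.14 (SE 0.61), and Rpgr-204, at −0.93 (SE 0.70), came largely from 1 library each, as their values further on show. Ift22 encodes a small GTPase-like subunit of complex B, and as a gene it was at 12.1, 7.39 and 11.4 FPKM in CTGF-/- libraries, against 11.3, 10.4 and 11.2 FPKM in WT libraries. Its short transcript Ift22-204, of 670 bases in 4 exons, was at 8.45, 8.36 and 6.60 FPKM in CTGF-/- libraries, against 4.83, 4.52 and 3.15 FPKM in WT libraries. The groups were separate, with a 1.87-fold ratio of means and a difference of 0.78 (SE 0.19, limma adjusted p = 0.819). The longer Ift22-205, of 3071 bases in 5 exons, was at 11.8, 6.76 and 11.6 FPKM in CTGF-/- libraries, against 11.9, 10.96 and 12.1 FPKM in WT libraries. Ift22-204 made up 39.3%, 55.3% and 35.2% of the summed transcript FPKM of the gene in CTGF-/- replicates 1 to 3, against 28.5%, 28.3% and 19.9% in WT replicates 1 to 3. Ift22-201 was at most 1.21 FPKM in any library and was listed at 0 in CTGF-/- replicate 2.

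Ift140 encodes a subunit of complex A, and as a gene it was at 5.96, 6.18 and 5.85 FPKM in CTGF-/- libraries, against 5.71, 6.53 and 5.82 FPKM in WT libraries. Ift140-202, of 3774 bases in 27 exons, was at 2.72, 3.21 and 1.30 FPKM in CTGF-/- libraries, against 1.09, 0.0445 and 0.0386 FPKM in WT libraries. The lowest CTGF-/- library was only just above WT replicate 1, while WT replicates 2 and 3 were near 0. The difference was 1.33 (SE 0.38, limma adjusted p = 0.819). Ift140-201, of 5489 bases in 30 exons, was at 4.66, 4.22 and 5.94 FPKM in CTGF-/- libraries, against 5.72, 6.90 and 6.35 FPKM in WT libraries, which overlapped. Of all transcripts of the 48 genes, Ift22-204 and Ift140-202 were the 2 in the authors' deposited table of 194 higher transcripts, and 0 were in the authors' deposited table of 263 lower transcripts. The authors' deposited tables of 16 higher and 14 lower genes held 0 of the 48 genes.

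On the lower side, Ift172-201 was at 7.14, 7.12 and 7.67 FPKM in CTGF-/- libraries, against 7.78, 7.69 and 7.94 FPKM in WT libraries, with almost no gap. Its difference was −0.08 (SE 0.11), and the other listed transcript of the gene, Ift172-211, was below the filter. Bbs7-205, of 377 bases, was at 1.96, 2.60 and 2.58 FPKM in CTGF-/- libraries, against 2.89, 2.997 and 3.18 FPKM in WT libraries, with a difference of −0.25 (SE 0.17). Rpgr-204 was at most 0.239 FPKM in any library but WT replicate 2, where it was at 6.08 FPKM, so its mean difference rests on that library. The other transcripts of Bbs7, Rpgr and Tulp1 overlapped between the groups, except for the separate Tulp1-201 and for Tulp1-211, which was at 8.66, 39.3 and 7.99 FPKM in CTGF-/- libraries, against 6.07, 7.55 and 4.38 FPKM in WT libraries.

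**Figure D4:**
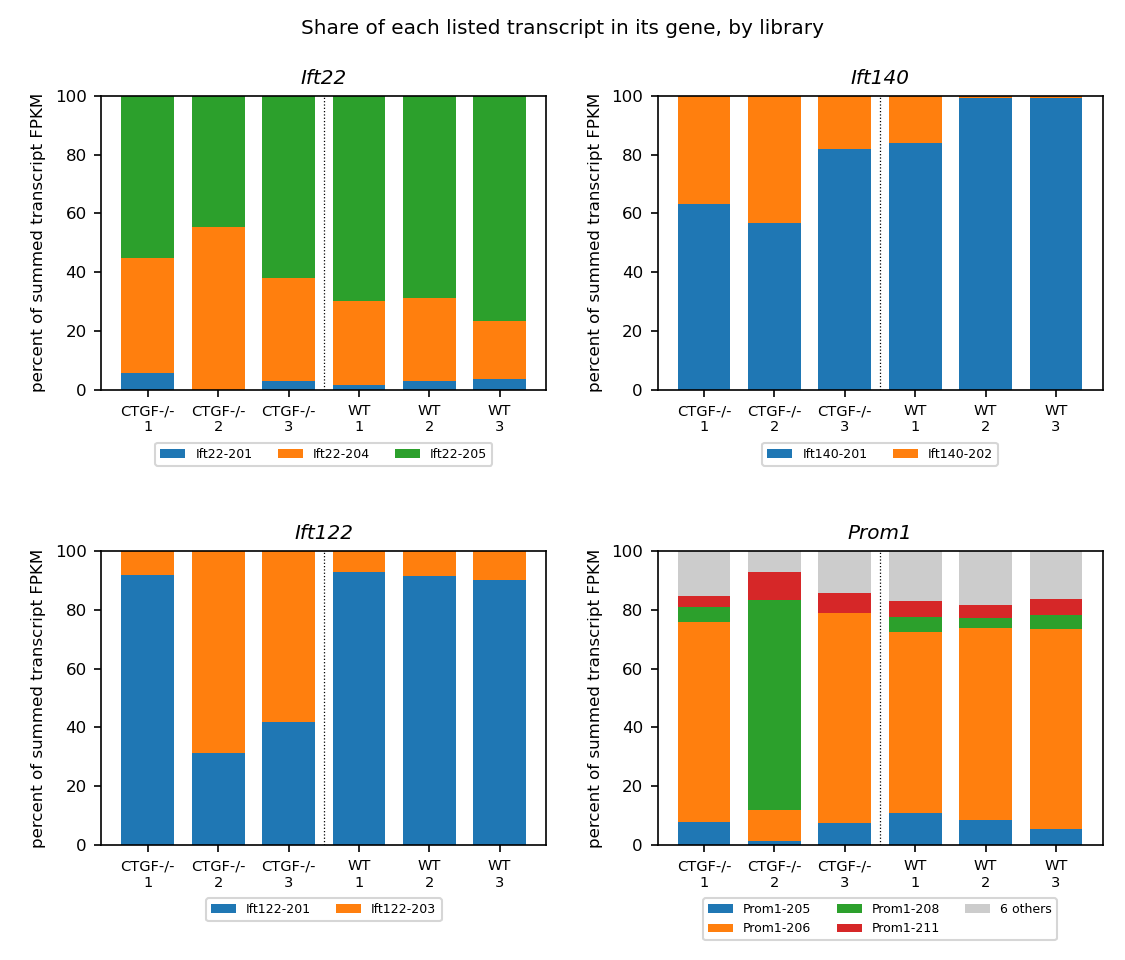
Percent of the summed transcript FPKM of 4 genes that each listed transcript took in each library, with CTGF-/- libraries left of WT libraries. The share of Ift22-204 is above its WT range in all 3 CTGF-/- libraries, while the share of Ift122-203 is raised only in CTGF-/- replicates 2 and 3 and that of Prom1-208 only in CTGF-/- replicate 2.

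Shares between transcripts of like length could also differ between libraries of the same group, as 2 genes chosen after their values were seen show. Ift122-203 took 7.97%, 68.8% and 58.2% of the Ift122 transcript FPKM in CTGF-/- replicates 1 to 3, against 7.04%, 8.59% and 9.83% in WT replicates 1 to 3. Its 4122 bases in 29 exons differ little in length from the 4056 bases in 29 exons of Ift122-201, which took the rest, and the gene as a whole was at 6.48, 7.45 and 6.42 FPKM in CTGF-/- libraries, against 5.78, 6.47 and 5.90 FPKM in WT libraries. Prom1-208 took 71.2% of the Prom1 transcript FPKM in CTGF-/- replicate 2, against 5.10% and 0.0393% in CTGF-/- replicates 1 and 3 and 3.55% to 5.25% in WT libraries. Its place was held by Prom1-206 in all other libraries. CTGF-/- replicate 2 also listed 1875 transcripts of the whole table at 0, where the other libraries listed 716 to 861, and 11 of the 122 transcripts of these genes, where the others listed 1 to 3.

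Library and transcript length moved with these values. CTGF-/- replicate 1 was the highest of the 6 libraries for 29 of the 48 genes (60.4%) and for 8 of the 11 structure genes, against 11.8% of all genes tested. CTGF-/- replicate 2 was the lowest library for 15 of the 48 genes (31.2%), close to its share of 31.7% over all genes tested. WT replicate 2 was the lowest for 17 of the 48 genes (35.4%) and for 9 of the 11 structure genes, against 13.5% of all genes tested. Across all genes tested with a known transcript length, the median difference ran from 0.09 for lengths under 1000 bases through 0.04, −0.01 and −0.08 to −0.14 for 7000 bases and more. CTGF-/- replicate 2 was low and WT replicate 2 high for the longest genes, at −0.15 and 0.14, each relative to the mean of the other libraries. The structure genes Rp1l1 and Abca4, with main transcripts of 6684 and 7263 bases, had differences of 0.36 and 0.20, above the medians of their length classes. After centring libraries within length classes, the median difference was 0.31 for the structure genes and 0.07 for the transport and BBSome genes. Arl3, Bbs1, Ift27, Rom1 and Tulp1 had no known length and were left out. Of the 43 genes with a length, 8 were higher in CTGF-/- retinas at an unadjusted p under 0.05. This count and the structure and transport medians thus cover fewer genes than those given before. The same count over all genes was not made.

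**Figure D5:**
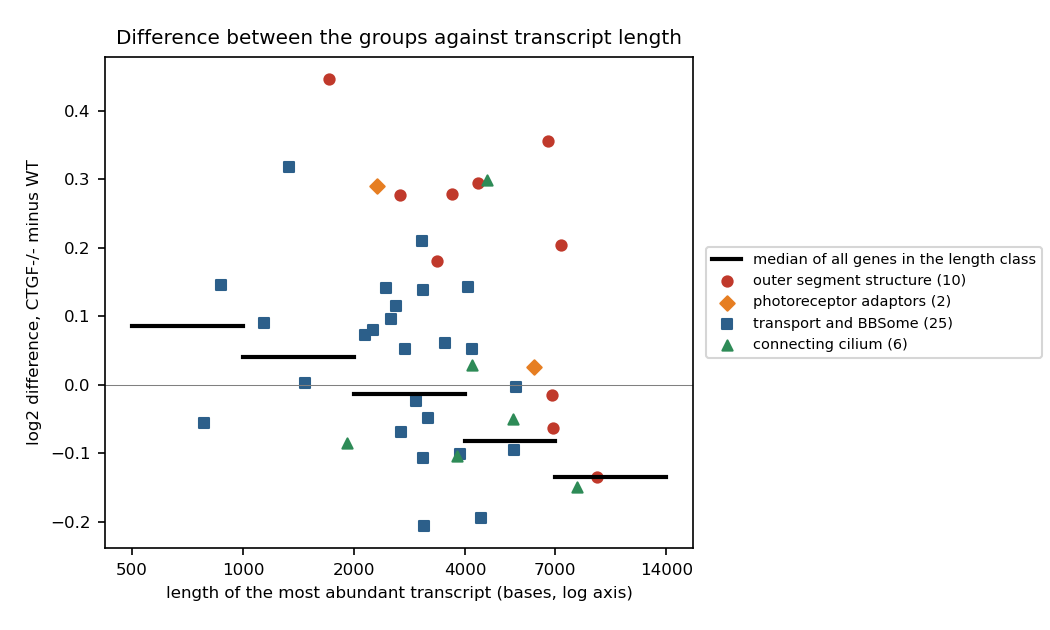
Log2 difference between CTGF-/- and WT against the length of the most abundant transcript for the 43 genes with a known length, with the median of all genes in each length class as black bars. The medians of all genes decline with length from 0.09 to −0.14, and several structure genes of over 4000 bases lie above them.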

How the data were processed

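Whole-retina RNA was measured in 3 CTGF-/- and 3 WT libraries at postnatal day 7. Per the labels' protocols, polyadenylated RNA was made into strand-specific libraries and sequenced as paired ends. Per the submitters' processing notes, reads were checked with FastQC, trimmed with cutadapt, aligned to GRCm38 with HISAT2 and quantified with StringTie, without versions. The authors deposited FPKM per gene and per transcript, calculated with Ballgown per the series' design text. The strand setting of the counting was not stated, so reads of Rpgr, Prom1, Bbs4, Bbs12, Nphp4, Rpgrip1, Ift140 and other genes that overlap a neighbour in GENCODE M21 are less certain. The log2 fold changes of the authors' deposited lists of higher and lower genes and transcripts were used only to look up these genes. The files hold no read counts, so depth is unknown and no counting interval is given.

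FPKM were tested with limma 3.58.1 in R 4.3.3 (lmFit, eBayes with trend) on log2(FPKM + 1), over all genes or transcripts with a mean of at least 0.5 FPKM. Adjusted p-values are two-sided Benjamini-Hochberg values over all features tested, with a threshold of 0.05. This scale understates differences of weak genes. The procedure was tested on simulated data. The genes, roles, pathway lists and marker lists were chosen with earlier results of these data known. Named in full were the most abundant gene of each role, genes with an unadjusted p under 0.05, the gene most against the majority of its role, up to 5 separated transcripts per direction and the 2 pathway genes of smallest p per list. Crx and some neighbours in the same role were added after their values were seen. RefSeq promoter windows (GRCm38.p6) matched 43 of the 48 genes. Each of the full tables held 1 empty line. Transcript lengths and exon numbers come from GENCODE M21, and the coordinates are those of the deposited tables.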

Additional observations from a re-analysis of the deposited data

How the results depend on the processing

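The files give no depth, 3 libraries per group limit precision, and FPKM depend on the transcripts assembled. The 10 genes at an unadjusted p under 0.05 kept their direction in all 167 values over 17 alternatives, with a lowest adjusted p of 0.417, and the 8 named transcripts did so in all 110 values, with a lowest adjusted p of 0.548. These genes were picked for a small p and these transcripts for separate groups. Separate groups cannot change direction when libraries are left out, so for those settings the choice largely fixed the outcome. No gene or transcript of the set passed an adjusted p under 0.05 under any alternative. Their count of 10 genes was 5 at equal FPKM totals and 5 to 12 when leaving out 1 library. It was 4 without the highest lens library of each group and 6 without the 2 libraries that deviated most with length, each with fewer libraries per group. These settings and the centring within length classes were chosen after seeing the data. The 12 higher transcripts became 4 at equal totals, 7 without a variance trend and 7 to 11 when leaving out 1 library. The count of lower transcripts, 0, became 1 with no filter, 1 at equal totals and 0 to 3 when leaving out 1 library. For none of the alternatives were the same counts made over all genes or transcripts. The median of the transport and BBSome genes was −0.0082 at equal totals, and that of the connecting cilium ranged from −0.13 to 0.040 when leaving out 1 library. Equal totals moved the median of all genes tested to −0.09. Of 6 other named genes, differences changed sign for Bbs7 (−0.15 to 0.038 when leaving out 1 library, 0.0077 without the 2 length libraries), Rpgrip1 (−0.25 to 0.047, 0.047 without the 2 length libraries, 0.019 within length classes), Kif3a (−0.12 to 0.0085) and Pcdh15 (0.018 within length classes). The cause was not tested. Deviations of same-numbered libraries from their group means had correlations of 0.0129, 0.171 and −0.156 for numbers 1 to 3. Over all pairs they ran from −0.305, for CTGF-/- replicate 2 with WT replicate 1, to 0.371, for CTGF-/- replicate 3 with WT replicate 1. Whether any libraries shared a batch was not tested. With the replicate number as a block, 8 genes and 11 transcripts were higher at an unadjusted p under 0.05.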
